A study of Mus musculus with 24 samples.

Results

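The genes described here encode the enzymes that make fatty acids and join them into triglyceride, the proteins that pack triglyceride into lipid droplets, and the lipases that release it again. They were taken by symbol from a list of 37 genes that leaves out the fatty acid elongases; the rule holds no threshold on a genotype difference. All 37 were found among the 35304 genes of the count table, and all were among the 17275 genes with enough counts to be tested. A mean of at least 0.5 CPM (read counts put on a common library size by TMM) was required to keep a member, which left 36. Mogat1, a monoacylglycerol acyltransferase, averaged 0.221 CPM and was not described further.

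Liver RNA came from mice of 2 genotypes. HepKO mice carried Alb::Cre_+/0 with Bmal1_fl/fl, so that Cre under the albumin promoter deleted the clock gene Bmal1 (Arntl) in hepatocytes while other liver cells kept it. HepWT mice carried the same Bmal1_fl/fl alleles with Alb::Cre_0/0, that is without Cre. Every group was C57BL/6, 8 to 12 weeks old and under night restricted feeding, and was sampled at zeitgeber time (ZT, hours after lights on) 2, 6, 10, 14, 18 or 22. There were 2 libraries for each genotype and time and 24 in all. The sources used here do not say whether these were separate animals, so the p values cover only the spread among the libraries.

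Total counts were 12997689 to 16910415 in 5 HepKO replicate 2 libraries (ZT6 to ZT22) and 23583035 to 30677807 in the other 19. Arntl ran from 1.27 to 45.96 CPM over the HepWT libraries and from 10.3 to 17.7 CPM over the HepKO libraries; the count covers the whole gene, so it does not check the floxed part. The 8 hepatocyte markers summed to 73980.0 to 103400.0 CPM in HepWT and 36550.0 to 55240.0 CPM in HepKO without overlap; Alb fell 2.56-fold (log2 -1.36 ± 0.09 SE, adjusted p = 4.31e-09), Asgr1 and F2 rose, and the other 5 did not pass. The defining adipocyte transcripts Adipoq, Plin1, Lep and Retn were each at or near 0 in most libraries, but all 4 had counts in HepKO ZT2 replicate 2, ZT10 replicate 1, ZT14 replicate 2 and ZT22 replicate 1, with Adipoq at 0.425, 1.17, 0.172 and 1.28 CPM. Other markers of the adipocyte list did not single out these libraries. Cfd was at 1.08, 3.9, 1.32 and 5.02 CPM in them, but also at 3.42 CPM in HepWT ZT14 replicate 1 and 1.76 CPM in HepWT ZT18 replicate 1. Fabp4 was highest in HepWT ZT2 replicate 2, at 14.4 CPM. Fat cells are rich in several of the genes described here. Leaving out the 4 HepKO libraries with counts of all 4 transcripts left 1 HepKO library at ZT2, ZT10, ZT14 and ZT22. Some calls at ZT6 and ZT18, where no library was left out, were lost too. There Pnpla2 at ZT6 went from log2 -0.516 to -0.511 and Dgat2 at ZT18 from -0.655 to -0.649. A lost call therefore does not measure the part of fat cells, which was not tested. Without these 4 libraries, 1 of the 24 calls averaged over the day (Plin3) and 19 of the 37 calls at single times were lost.

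As background, the liver turns surplus carbohydrate into fat. Citrate leaves the mitochondrion through Slc25a1, is split to acetyl-CoA by Acly, carboxylated to malonyl-CoA by Acaca and Acacb and built into palmitate by Fasn with NADPH from Me1. Scd1 and Fads enzymes add double bonds, and Gpam, the Agpat enzymes, Dgat1 and Dgat2 add acyl chains to glycerol step by step, with a phosphate removed by the lipins, to give triglyceride. Perilipins, CIDE proteins and FIT proteins form and coat the droplet, and Pnpla2 with its activator Abhd5 and inhibitor G0s2, then Lipe, then Mgll and Abhd6, take the acyl chains off again. In liver many of these genes are known to follow feeding and the clock.

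Averaged over the day, fat synthesis and storage genes were more often lower than higher in HepKO liver. Of the 36 members, 20 (55.6%) fell and 4 (11.1%) rose at an adjusted p below 0.05 (edgeR quasi-likelihood F test, Benjamini-Hochberg over all tested genes), and 12 did not pass. Of all tested genes, 13.3% fell and 13.2% rose, 26.5% in either direction, beside 66.7% of the members. Without the 5 libraries of low depth 13 members were called lower, and without the 4 with adipocyte transcripts 20. The shares of all tested genes called in those fits are not set beside these counts, so the drop to 13 is not read as a result about the members. The median member difference was -0.32 on the log2 scale and the median of all tested genes -0.01, with 27 members below 0 and 9 above. The largest fall was that of Pnpla3, a lipase-like droplet protein (log2 -2.43), and the largest rise that of the desaturase Scd2 (log2 1.24). Pnpla3 passed the 0.5 CPM floor through its HepWT level, with HepKO values near 0. All 7 lipolysis genes and all 4 desaturases passed the test, whereas 6 of the 8 kept genes of triglyceride assembly did not. In whole liver, fewer cells of a type and less RNA per cell cannot be told apart.

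**Figure D1:**
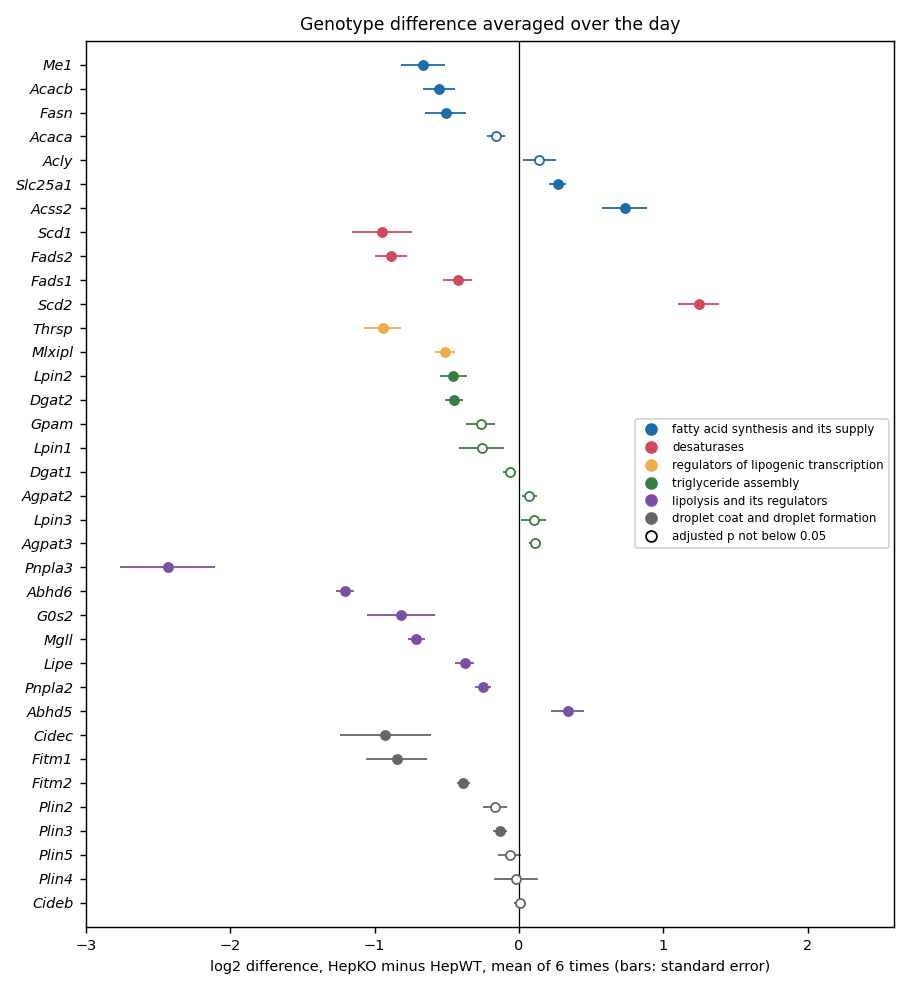
Difference between HepKO and HepWT averaged over the 6 times for the 36 members, on the log2 scale (x axis), grouped by role (colour). Points are fitted values, bars are standard errors, and open points did not pass the test; 20 filled points lie below 0 and 4 above, with Pnpla3 at -2.43 and Scd2 at 1.24.

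Fitted differences were below 0 at all 6 times in 12 members (33.3%, against 11.8% of all tested genes) and above 0 at all 6 in 3 (8.33%, against 11.6%). No member kept all 12 HepKO libraries apart from all 12 HepWT libraries, a pattern seen in 0.48% of all tested genes in the lower direction and 0.949% in the higher. Compared time by time, both HepKO libraries lay below both HepWT libraries at every time for Abhd6, Mgll, Fads2, Mlxipl and Pnpla3 (13.9% of members, against 2.05% of all tested genes), and above them at every time for Scd2 (2.78%, against 2.63%). Pnpla3 passed the 0.5 CPM floor through its HepWT level, so its place among these is not taken as support for a fall. Per kilobase of exon, Scd1 was the most abundant member at 1681 CPM in HepWT, ahead of Thrsp at 282, Fads2 at 159.5, Dgat2 at 145 and Fasn at 104, and Cidec the least at 0.768.

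BMAL1 and its partners are known to bind the E-box CACGTG, so the promoters of the members were searched for it. RefSeq windows of 300 bases (GRCm38.p6, 250 before a transcript start and 50 after it) were held for 31 of the 36 kept members, 42 windows in all. Scd1, Scd2, Fads1, Dgat1 and Dgat2 had none. Some windows lay inside the gene. The only window of Acaca began at 84195188 and that of Acacb at 114165268, while these genes start at 84129672 and 114146535. Their promoters at the gene start were therefore not searched. The E-box, which reads the same on both strands, stood in 7 of these windows (16.7%) and in 7.15% of all 32851 windows. The 7 genes were Mlxipl, Mgll, Lipe, Lpin2, Slc25a1, Plin2 and Lpin3. Of these, 4 fell, Slc25a1 rose, and Plin2 and Lpin3 did not pass, while of the 24 members whose windows lacked it 13 fell and 2 rose. The sterol element TCACNCCAC, searched on both strands, stood in 1 member window, the downstream start of Mlxipl, and in 1.24% of all windows. Windows of a member below HepWT at every time (Mgll), of a lipogenic factor (Mlxipl), of a member that rose (Slc25a1) and of a droplet coat gene that fell at ZT6 (Plin2) are shown 5′ to 3′ along the gene, with the E-box in capitals. They lie at chr6:88724162-88724461 (plus strand), chr5:135089640-135089939 (plus), chr16:17928170-17928469 (minus) and chr4:86670010-86670309 (minus), and the E-box begins 44, 98, 239 and 4 bases before the start.
Mgll: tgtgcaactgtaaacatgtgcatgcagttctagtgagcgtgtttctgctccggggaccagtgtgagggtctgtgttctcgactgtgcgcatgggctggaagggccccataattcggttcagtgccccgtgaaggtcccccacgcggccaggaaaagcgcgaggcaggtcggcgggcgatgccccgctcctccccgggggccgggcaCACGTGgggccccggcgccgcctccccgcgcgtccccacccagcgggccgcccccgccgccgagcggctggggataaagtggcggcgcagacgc
Mlxipl: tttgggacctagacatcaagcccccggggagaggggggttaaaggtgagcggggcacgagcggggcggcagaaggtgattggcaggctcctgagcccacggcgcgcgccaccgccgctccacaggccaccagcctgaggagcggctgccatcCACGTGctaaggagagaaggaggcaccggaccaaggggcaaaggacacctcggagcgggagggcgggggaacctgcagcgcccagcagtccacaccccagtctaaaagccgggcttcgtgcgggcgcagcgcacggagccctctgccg
Slc25a1: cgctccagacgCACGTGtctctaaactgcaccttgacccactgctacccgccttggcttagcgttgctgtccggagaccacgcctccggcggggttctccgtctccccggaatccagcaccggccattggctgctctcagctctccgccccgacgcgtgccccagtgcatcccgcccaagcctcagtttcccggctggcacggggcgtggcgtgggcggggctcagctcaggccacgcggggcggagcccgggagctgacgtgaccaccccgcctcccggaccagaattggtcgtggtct
Plin2: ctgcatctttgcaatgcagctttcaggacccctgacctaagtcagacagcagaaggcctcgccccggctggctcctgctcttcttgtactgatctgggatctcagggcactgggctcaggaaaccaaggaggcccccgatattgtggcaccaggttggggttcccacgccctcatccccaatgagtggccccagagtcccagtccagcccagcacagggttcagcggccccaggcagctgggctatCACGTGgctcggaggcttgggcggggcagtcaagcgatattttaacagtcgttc
A match in these letters is a description and not a measured binding site.

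Fatty acid synthesis did not move as a block. Of its 7 genes 3 fell, 2 rose and 2 did not pass, while 13.3% of all tested genes fell and 13.2% rose. Fasn, fatty acid synthase (ENSMUSG00000025153, chromosome 11 from 120805846 to 120824547, GRCm38), averaged 969, 442, 625, 1131, 2394 and 1260.5 CPM at ZT2, 6, 10, 14, 18 and 22 in HepWT and 641, 409.9, 364, 748, 1814 and 848 CPM in HepKO. Its sharp rise to ZT18 was present in both genotypes at a lower level in HepKO, a fall of 1.42-fold (log2 -0.51 ± 0.14 SE, adjusted p = 0.0133), and the genotypes had overlapping libraries at 3 of 6 times. The call was lost when the 5 shallow HepKO libraries were left out (log2 -0.55, adjusted p = 0.0638) and against the HepWT replicate 2 libraries alone (-0.28, 0.121). Acacb, the acetyl-CoA carboxylase of the outer mitochondrial membrane, averaged 211, 104, 102, 126, 266 and 292 CPM in HepWT and 129.99, 106, 75.1, 68.5, 190.3 and 163 CPM in HepKO (log2 -0.55 ± 0.11 SE, adjusted p = 0.00101), with HepKO lower at 4 of 6 times without overlap. Its cytosolic counterpart Acaca, which commits carbon to fat synthesis, differed by log2 -0.16 (adjusted p = 0.0709), and Acly, ATP citrate lyase, by 0.14 (adjusted p = 0.418).

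Me1, malic enzyme, a source of NADPH, averaged 154, 83.8, 130.4, 139.6, 179.7 and 182 CPM in HepWT and 106, 78.9, 91.6, 83.5, 84.1 and 90.2 CPM in HepKO. It fell by 1.59-fold (log2 -0.66 ± 0.16 SE, adjusted p = 0.00391) with the deepest gap at ZT18, but the call was lost against the HepWT replicate 2 libraries alone (log2 -0.47, adjusted p = 0.105). In the opposite direction, Acss2, which makes cytosolic acetyl-CoA from acetate, averaged 357, 187, 183, 127, 274 and 269 CPM in HepWT and 336, 367, 361, 318, 437 and 388 CPM in HepKO. Acss2 rose by 1.66-fold (log2 0.73 ± 0.16 SE, adjusted p = 0.00205), and both HepKO libraries exceeded both HepWT libraries at every time but ZT2. The citrate carrier Slc25a1 rose by 1.20-fold (log2 0.27 ± 0.06 SE, adjusted p = 0.00264), from a HepWT median of 151 to 183 CPM, and lost its call against the HepWT replicate 1 libraries alone (log2 0.17, adjusted p = 0.0511).

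Desaturases changed in opposite directions, with Scd2 alone rising. Scd1, the main liver stearoyl-CoA desaturase, which makes oleate and palmitoleate, averaged 8389, 8284, 7366, 5682, 9314 and 10297 CPM in HepWT and 4359.8, 3676, 5831, 2432, 5288 and 4446 CPM in HepKO. It fell by 1.93-fold (log2 -0.95 ± 0.21 SE, adjusted p = 0.00241), but its HepWT libraries were uneven, with 13500.0 and 3069 CPM in replicates 1 and 2 at ZT6. Against the HepWT replicate 1 libraries the fall was log2 -1.24 and against replicate 2 -0.47, and without the 5 libraries of low depth it missed the threshold (log2 -0.89, adjusted p = 0.0551). Scd2, a second stearoyl-CoA desaturase that lies beside Scd1 (chromosome 19, Scd2 from 44293674 to 44306864 and Scd1 from 44394455 to 44407879, GRCm38), averaged 13.6, 10.5, 8.93, 10.4, 11.6 and 11.3 CPM in HepWT and 26.3, 35.2, 19.3, 21.5, 42.1 and 18.6 CPM in HepKO. It rose by 2.37-fold (log2 1.24 ± 0.14 SE, adjusted p = 4.72e-06), with a lowest, median and highest library of 13.8, 25.8 and 57.1 CPM in HepKO and 7.21, 10.8 and 15.5 CPM in HepWT. Scd1 and Scd2 share sequence, so their reads could be mixed in counting, which was not tested. Per kilobase of exon Scd1 still exceeded Scd2, at 887 against 4.97 CPM in HepKO.

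The desaturases of polyunsaturated fatty acids both fell. Fads2, the delta-6 desaturase, averaged 386, 469, 719.8, 609.8, 562 and 407 CPM in HepWT and 256, 247, 333, 268, 279.8 and 288 CPM in HepKO, a fall of 1.85-fold (log2 -0.89 ± 0.11 SE, adjusted p = 1.07e-05). HepKO libraries stayed between 210.2 and 347 CPM, while the 2 HepWT libraries at ZT10 held 471 and 969 CPM. The ZT10 difference rested on the second of these: it was log2 -1.11 (adjusted p = 0.0161) with it and -0.49 (adjusted p = 0.368) without it. It was also lost without HepKO ZT10 replicate 1 (-1.17, 0.0964) or replicate 2 (-1.04, 0.138). Fads1, the delta-5 desaturase, averaged 362, 372, 394, 376, 399 and 382 CPM in HepWT and 239.7, 253, 319.9, 294, 296 and 307 CPM in HepKO (log2 -0.43 ± 0.10 SE, adjusted p = 0.00332), a more even difference over the day. Both calls held in every one of the 24 fits that left out 1 library.

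Thrsp and Mlxipl, the regulators of lipogenic transcription, were lower in HepKO. Thrsp (Spot 14), a small protein induced by carbohydrate and thyroid hormone that promotes fat synthesis, averaged 211, 51.9, 441, 1021, 1306 and 669 CPM in HepWT and 206, 77.9, 80.1, 321, 619.98 and 332 CPM in HepKO. HepWT climbed from its trough at ZT6 to ZT10, while both HepKO libraries were still at 74.8 and 85.5 CPM at ZT10, and HepKO stayed below HepWT at ZT14, ZT18 and ZT22. At ZT6 the order was the other way, with 58.2 and 45.5 CPM in HepWT and 79.2 and 76.5 CPM in HepKO, a difference that did not pass (adjusted p = 0.343). Averaged over the day Thrsp fell by 1.92-fold (log2 -0.94 ± 0.13 SE, adjusted p = 2.5e-05), at ZT10 by 5.50-fold (log2 -2.46 ± 0.33 SE, adjusted p = 0.000114) and at ZT14 by 3.18-fold (log2 -1.67 ± 0.32 SE, adjusted p = 0.00248). The ZT10 call held without the 5 libraries of low depth and without the 4 with adipocyte transcripts; the ZT14 call did not (log2 -1.36 in both, adjusted p = 0.133 and 0.0609). Mlxipl, which encodes the glucose-sensing factor ChREBP, averaged 165, 135, 127, 141, 162 and 205 CPM in HepWT and 123, 113, 96.1, 95.1, 98.6 and 125 CPM in HepKO and fell by 1.43-fold (log2 -0.52 ± 0.07 SE, adjusted p = 2.54e-05), with HepKO below HepWT at every time.

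Of the 8 genes of triglyceride assembly 2 were called, a share near the 26.5% of all tested genes. Dgat2, which esterifies newly made fatty acids to diacylglycerol, averaged 302, 333, 537, 557, 534 and 413 CPM in HepWT and 303, 275, 335, 362, 339 and 298 CPM in HepKO. HepWT stepped up from ZT6 to ZT10 and stayed high through ZT18, while HepKO stayed between 272 and 395 CPM, giving a mean fall of 1.37-fold (log2 -0.45 ± 0.06 SE, adjusted p = 2.27e-05). Dgat1, the other enzyme of this step, which prefers fatty acids from outside the cell, differed by log2 -0.07 (adjusted p = 0.337). Lpin2, a lipin that turns phosphatidate into diacylglycerol, averaged 222, 236, 527, 204, 222 and 154 CPM in HepWT and 187, 179, 277, 109, 155 and 183 CPM in HepKO (log2 -0.46 ± 0.09 SE, adjusted p = 0.00162), with the tallest HepWT value at ZT10. Its call was lost without the 5 libraries of low depth (log2 -0.33, adjusted p = 0.065).

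Lpin1, the lipin with the largest daily amplitude of the 3, averaged 42.8, 50.5, 225, 599, 61.97 and 125 CPM in HepWT and 45.5, 70.8, 197, 233, 69.3 and 74.3 CPM in HepKO. Its burst at ZT14 held 426 and 773 CPM in the HepWT libraries and 277 and 189 CPM in the HepKO libraries, so both HepKO libraries were lower; at 4 times the genotypes overlapped and at 1 HepKO was above. The ZT14 difference was called (log2 -1.36 ± 0.39 SE, adjusted p = 0.0405) but was lost in 15 of the 24 fits that left out 1 library (each HepKO library, HepWT ZT14 replicate 2 and both HepWT ZT18 libraries) and without the 4 with adipocyte transcripts (log2 -1.11, adjusted p = 0.358), and the mean difference did not pass (log2 -0.26, adjusted p = 0.256). Gpam, the mitochondrial acyltransferase that starts the pathway, differed by log2 -0.27 (adjusted p = 0.0574), Agpat2 by 0.07 (0.335), Agpat3 by 0.11 (0.0525) and Lpin3 by 0.10 (0.425). None of these means passed the test.

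**Figure D2:**
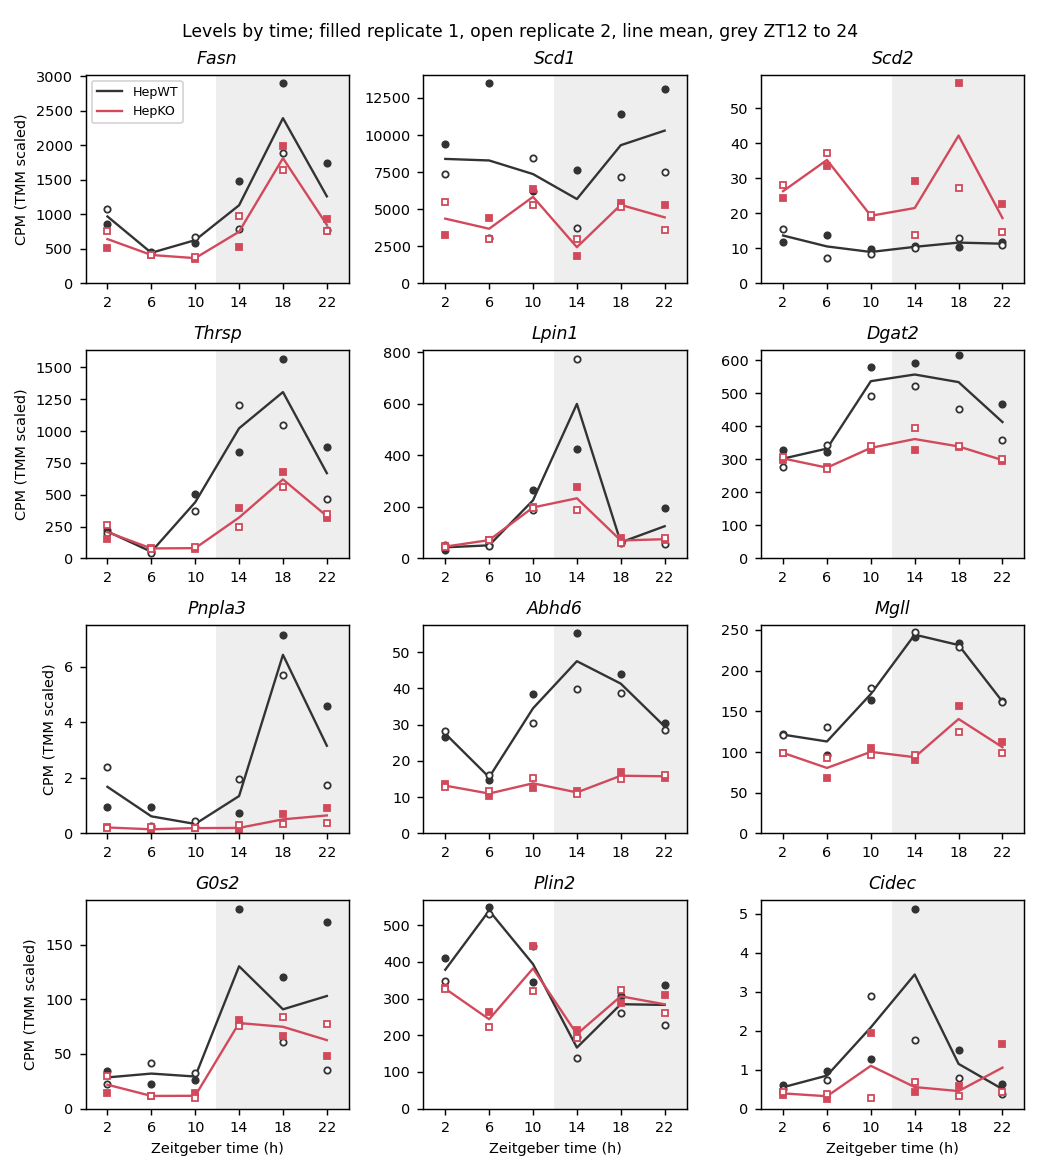
Levels in CPM (TMM scaled, linear y axes from 0) against zeitgeber time for 12 members, HepWT in black and HepKO in red, with filled points for replicate 1, open points for replicate 2 and lines through group means. Mean levels of Abhd6, Mgll, Dgat2 and Thrsp rose toward the night in HepWT and less in HepKO. The test of genotype with time called only Abhd6 and Thrsp, and neither without the 5 libraries of low depth. The test of the difference between rhythms called no member. Scd2 was higher in HepKO at every time, and the ZT6 maximum of Plin2 in HepWT, 539.6 CPM, stood over 243 CPM in HepKO.

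Of the 7 lipolysis genes 6 fell and 1 rose, beside 13.3% and 13.2% of all tested genes. Abhd6, a monoacylglycerol and phospholipid hydrolase (ENSMUSG00000025277, chromosome 14 from 8002902 to 8056763, GRCm38), averaged 27.5, 15.5, 34.5, 47.5, 41.3 and 29.5 CPM in HepWT and 13.2, 11, 13.8, 11.3, 15.9 and 15.8 CPM in HepKO. HepWT climbed from 15.5 CPM at ZT6 to 47.5 CPM at ZT14 while the HepKO libraries stayed between 10.3 and 16.9 CPM, so that both HepKO libraries were below both HepWT libraries at every time. The mean fall was 2.31-fold (log2 -1.21 ± 0.06 SE, adjusted p = 3.04e-10), and the gap was 1.42-fold at ZT6 and 4.19-fold at ZT14 (log2 -2.07 ± 0.15 SE, adjusted p = 2.18e-07). Mgll, the main monoacylglycerol lipase, averaged 121, 113, 171, 244, 231 and 162 CPM in HepWT and 98.96, 80.5, 100.2, 93.7, 141 and 106 CPM in HepKO, a mean fall of 1.64-fold (log2 -0.71 ± 0.06 SE, adjusted p = 1.04e-07). The HepKO level at ZT14 was near its daytime level while HepWT was at its maximum, a fall of 2.61-fold (log2 -1.38 ± 0.15 SE, adjusted p = 1.01e-05; log2 -1.43, adjusted p = 0.00143 without the 4 libraries with adipocyte transcripts).

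Pnpla3, the patatin-like lipase whose human gene is known for fatty liver risk, was scarce, averaging 1.68, 0.616, 0.342, 1.35, 6.44 and 3.16 CPM in HepWT and 0.215, 0.149, 0.192, 0.200, 0.508 and 0.649 CPM in HepKO. HepWT was highest at ZT18, whereas the highest HepKO library at any time held 0.935 CPM, and the mean fall was 5.40-fold (log2 -2.43 ± 0.33 SE, adjusted p = 2.77e-05). Pnpla3 passed the 0.5 CPM floor through HepWT, and its HepKO means were below that floor at ZT2, ZT6, ZT10 and ZT14. The size of its fall therefore rests on HepKO values near 0. G0s2, the inhibitor of the triglyceride lipase Pnpla2, averaged 28.5, 32.03, 29.3, 130.3, 90.9 and 103 CPM in HepWT and 21.8, 11.5, 11.7, 78.3, 74.9 and 62.7 CPM in HepKO (log2 -0.82 ± 0.24 SE, adjusted p = 0.0161). The step up at ZT14 was there in both genotypes, and the libraries overlapped at 4 of 6 times. HepWT replicate 1 and 2 held 171 and 34.96 CPM at ZT22, and the call was lost against HepWT replicate 2 alone (log2 -0.37, adjusted p = 0.109), without the 5 libraries of low depth (-0.85, 0.111) and with limma-voom (-0.72, 0.0555).

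Pnpla2, adipose triglyceride lipase, which takes off the first acyl chain, fell by 1.19-fold (log2 -0.25 ± 0.05 SE, adjusted p = 0.00245), a call lost without the 5 libraries of low depth (log2 -0.24, adjusted p = 0.0543). At ZT14 the 2 HepWT libraries held 41.7 and 51.5 CPM and the 2 HepKO libraries 27.5 and 29.3 CPM (log2 -0.71 ± 0.13 SE, adjusted p = 0.00215), whereas at ZT18 they held 14.9 and 18.4 CPM in HepWT and 20.6 and 19.6 CPM in HepKO, with no call. The ZT14 call was also lost without the 5 libraries of low depth (log2 -0.76, adjusted p = 0.0573) and held without the 4 with adipocyte transcripts (-0.76, 0.0315). Lipe, hormone-sensitive lipase, averaged 17.03, 15.5, 21.9, 13.3, 15.9 and 15.2 CPM in HepWT and 11.7, 12.6, 11.7, 11.4, 16.9 and 11.5 CPM in HepKO (log2 -0.38 ± 0.07 SE, adjusted p = 0.000425), with the widest gap at ZT10 (log2 -0.90 ± 0.16 SE, adjusted p = 0.00208), where the call was lost without the 5 libraries of low depth (log2 -0.81, adjusted p = 0.0556). Fat cells express Lipe strongly; without the 4 libraries with adipocyte transcripts its mean difference was log2 -0.36 (adjusted p = 0.00498). Abhd5, the activator of Pnpla2, was the 1 member of the role that rose, by 1.26-fold (log2 0.34 ± 0.11 SE, adjusted p = 0.0339), with a HepKO maximum of 92.5 CPM at ZT14 in replicate 1. Its difference was log2 0.43 against HepWT replicate 1 alone and 0.26 against replicate 2 alone. With limma-voom it was log2 0.32 and did not pass (adjusted p = 0.0507). This call was lost in 11 of 24 fits that left out 1 library (HepKO ZT2 replicate 1, ZT6 and ZT10 replicate 2, ZT18 and ZT22 replicate 1, and HepWT ZT2 and ZT22 replicate 2 and ZT6, ZT10, ZT14 and ZT18 replicate 1), with log2 differences from 0.30 to 0.33 and adjusted p from 0.0559 to 0.075.

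Among droplet coat and droplet formation genes, 4 of 8 fell and none rose, beside 13.3% and 13.2% of all tested genes. Fitm2, an endoplasmic reticulum protein that helps droplets bud, averaged 48.9, 57.1, 79.4, 109, 71.1 and 62 CPM in HepWT and 46.02, 42.9, 68.3, 62, 54.4 and 47.3 CPM in HepKO (log2 -0.39 ± 0.05 SE, adjusted p = 6.6e-06), lower without overlap at 5 of 6 times and most at ZT14 (log2 -0.82 ± 0.11 SE, adjusted p = 0.000129; log2 -0.68, adjusted p = 0.0183 without the 4 libraries with adipocyte transcripts). Its relative Fitm1 averaged 13.6, 12.9, 14.6, 17.2, 15.2 and 11.1 CPM in HepWT and 9.89, 5.18, 9.61, 6.87, 9.02 and 7.30 CPM in HepKO (log2 -0.85 ± 0.21 SE, adjusted p = 0.00657), but the HepWT libraries were split. Replicate 1 libraries averaged 18.7 CPM and replicate 2 libraries 9.44 CPM, a difference called on its own (log2 -0.95, adjusted p = 0.0208), and against replicate 2 alone the genotype call was lost (log2 -0.27, adjusted p = 0.16). Cidec, which enlarges droplets by fusing them, was scarce, averaging 0.546, 0.845, 2.08, 3.44, 1.14 and 0.499 CPM in HepWT and 0.388, 0.316, 1.10, 0.550, 0.448 and 1.05 CPM in HepKO. In HepKO it was highest in ZT10 replicate 1 and ZT22 replicate 1, at 1.93 and 1.66 CPM, which are also the libraries with the highest Adipoq, and Cidec is abundant in fat cells. In HepWT it was higher still at low Adipoq. Cidec was at 5.11 CPM in HepWT ZT14 replicate 1 and 2.89 CPM in HepWT ZT10 replicate 2, with Adipoq at 0.0824 and 0.0333 CPM. Over all libraries the difference was log2 -0.93 ± 0.32 SE, adjusted p = 0.0387; without the 4 libraries with adipocyte transcripts it was log2 -1.59 ± 0.33 SE (adjusted p = 0.00392). The part of these transcripts in the smaller value was not tested further. The call over all libraries was lost in 15 of the 24 fits that left out 1 library (adjusted p from 0.0503 to 0.0869), namely all but HepKO ZT10 replicate 1, ZT10 replicate 2, ZT14 replicate 2 and ZT22 replicate 1 and HepWT ZT6 replicate 2, ZT10 replicate 1, ZT14 replicate 2, ZT18 replicate 2 and ZT22 replicate 2.

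Of the perilipins, the droplet coat proteins, Plin3 alone passed the test of the mean level. Plin2, the main coat protein of liver droplets, averaged 379, 539.6, 394, 166, 284 and 283 CPM in HepWT and 327, 243, 382, 203, 306 and 284 CPM in HepKO, a mean difference of log2 -0.17 (adjusted p = 0.148). At ZT6, its HepWT maximum, the HepWT libraries held 549 and 531 CPM and the HepKO libraries 264 and 223 CPM. This was a fall of 2.22-fold (log2 -1.15 ± 0.20 SE, adjusted p = 0.00332). Among the single libraries left out, the call was lost only without HepKO ZT6 replicate 2 (log2 -1.04). It was also lost without the 5 libraries of low depth (log2 -1.01), which include that library. Plin3 differed by log2 -0.13 ± 0.05 SE, adjusted p = 0.0469, a call lost in 16 of 24 fits that left out 1 library (adjusted p from 0.051 to 0.142), all but those without HepKO ZT14 replicate 2 or ZT22 replicate 1 or HepWT ZT2 replicate 1, ZT6 replicate 2, ZT10 replicate 1, ZT14 replicate 2, ZT18 replicate 2 or ZT22 replicate 2. It was also lost with a replicate block (log2 -0.13, adjusted p = 0.0517), DESeq2 (-0.13, 0.0561), limma-voom (-0.13, 0.0523) and without the 4 libraries with adipocyte transcripts (-0.16, 0.067). Plin4 and Plin5, perilipins of muscle, fat and oxidative tissue, differed by log2 -0.02 and -0.07, and Cideb, which serves lipoprotein loading, by 0.01; none passed. The direction of Plin4, Plin5 and Cideb changed under other fits.

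Single times showed most calls at ZT14, early in the feeding phase. The members called lower numbered 1 at ZT2, 4 at ZT6, 7 at ZT10, 12 at ZT14, 6 at ZT18 and 3 at ZT22, beside 0.915%, 2.41%, 3.98%, 3.04%, 1.7% and 0.509% of all tested genes. Those called higher were 0 at ZT2, Scd2 at ZT6, Agpat2 at ZT10, Acss2 at ZT14, Scd2 at ZT18 and 0 at ZT22, beside 0.944%, 2.55%, 3.73%, 4.6%, 2.08% and 0.839%. At ZT14 the 12 were 33.3% of the members and the median member difference was -0.59 on the log2 scale, its most negative value; at ZT2 it was -0.21. Of the 37 calls at single times, 10 in 6 genes held in every fit that left out 1 library: Abhd6 at ZT2, 10, 14 and 18, Thrsp at ZT10 and 14, and Lipe, Pnpla2, Mgll and Fitm2 at 1 time each. With 2 libraries a group, the other 27 each depended on at least 1 library.

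**Figure D3:**
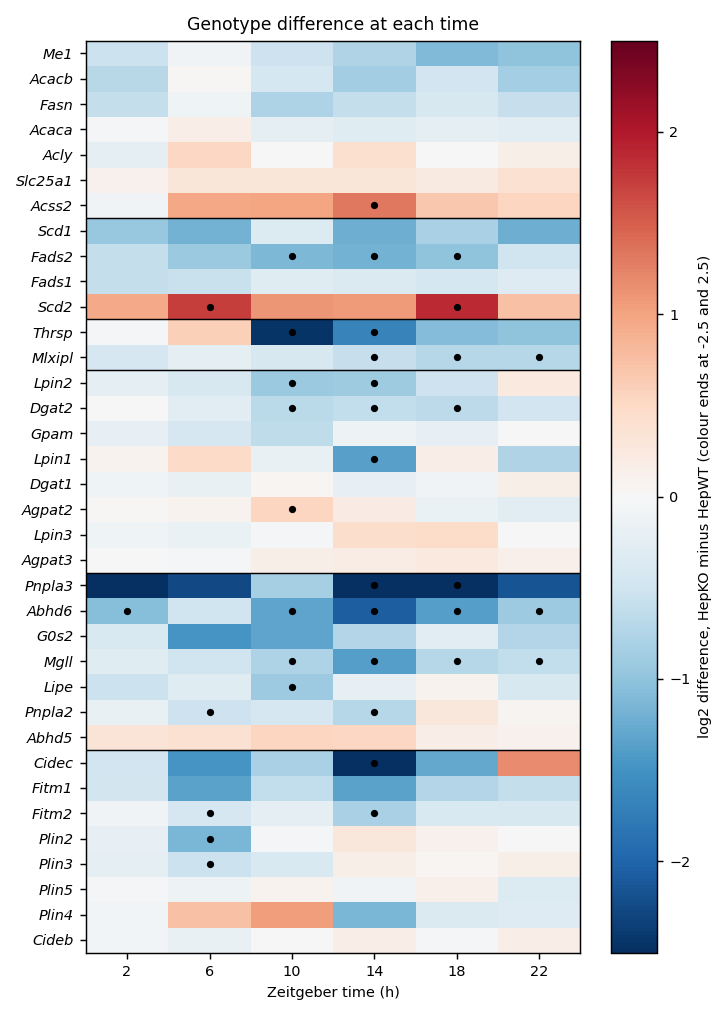
Fitted log2 difference, HepKO minus HepWT, for the 36 members (rows, grouped by role) at each zeitgeber time (columns), with blue for lower and red for higher in HepKO. Dots mark the 37 calls at an adjusted p below 0.05, of which 13 stand at ZT14.

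The size of the genotype difference varied over the day in 2 members, Abhd6 and Thrsp (5.56%, against 1.12% of all tested genes), by the test of genotype with time. Abhd6 was called lower at every time but ZT6, with log2 -0.50 at ZT6 and -2.07 at ZT14 (adjusted p of the test 0.00833). Thrsp moved from 0.59 at ZT6 to -2.46 at ZT10 (adjusted p 0.00823). Abhd6 lost its call against HepWT replicate 2 alone (adjusted p = 0.095), and neither test passed without the 5 libraries of low depth (adjusted p = 0.355 for Abhd6 and 0.277 for Thrsp) or without the 4 with adipocyte transcripts (0.154 and 0.118).

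A 24 h wave was called in 26 members in HepWT (72.2%, against 30.3% of all tested genes) and in 13 in HepKO (36.1%, against 14.3%), 12 of them in both. Without the 4 libraries with adipocyte transcripts 6 members were called in HepKO, a count given without the share of all tested genes in that fit. Amplitude, the height of the fitted peak above the mean on the log2 scale, had a member median of 0.48 in HepWT and 0.19 in HepKO, while the medians of all tested genes were 0.23 and 0.19. It was lower in HepKO in 31 of the 36 members, beside 59.66% of all tested genes. The test of the difference between rhythms nevertheless called no member (0, against 1.5% of all tested genes). With edgeR 10 members had an unadjusted p below 0.05, and the smallest adjusted p was 0.0601. DESeq2 called 2 (12 unadjusted) and limma-voom 0 (10 unadjusted). The number depended on the setting and was much larger without the filter on low counts, a fit not read as a result about the members. A wave called in HepWT and not in HepKO is therefore not shown to have been lost, and in the 7 HepKO libraries that remained without the 5 of low depth no member was called rhythmic, with 0.968% of all tested genes called.

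The 7 members with a HepWT amplitude above 1 came from several roles. Thrsp had the largest HepWT amplitude, 1.96 ± 0.21 in HepWT and 1.51 ± 0.21 in HepKO, and G0s2 the largest HepKO amplitude, 1.20 ± 0.26 in HepWT and 1.62 ± 0.27 in HepKO. Pnpla3 reached 1.92 ± 0.27 in HepWT and 1.26 ± 0.44 in HepKO, Lpin1 1.63 ± 0.29 in HepWT and 1.10 ± 0.29 in HepKO, Plin4 1.46 ± 0.26 in HepWT and 0.77 ± 0.26 in HepKO, Cidec 1.42 ± 0.33 in HepWT and 0.25 ± 0.36 in HepKO and Fasn 1.06 ± 0.16 in HepWT and 1.03 ± 0.16 in HepKO. Plin2 had 0.59 ± 0.14 in HepWT and 0.09 ± 0.14 in HepKO and Mgll 0.59 ± 0.07 in HepWT and 0.28 ± 0.07 in HepKO, where HepKO was nearly flat for Plin2.

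In HepWT the rhythmic members peaked in an order that followed their roles only in part. Lpin3, Plin2 and Plin3 peaked first, in the light phase, at ZT 4.5, 4.8 and 5.1. Lpin2 followed at ZT 9.7, the lipase gene Pnpla2 at 10.2 and Dgat1 at 11.4. Most members, 20 of the 26, peaked between ZT12 and ZT24: Fitm2 at ZT 13.9, Lpin1 at 14.3, Dgat2 at 14.7, Mgll at 15.9, Abhd6 at 16.1, Thrsp at 17.0, Acaca at 18.0, Fasn at 18.9, Acly at 21.1, Acacb at 21.2 and Acss2 at 23.8. Standard errors of these peaks were 0.40 h for Thrsp, 0.59 h for Fasn and 0.90 h for Plin2, so neighbours such as Acly and Acacb lay within their errors of each other while Plin2 and Fasn did not.

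In the 12 members rhythmic in both genotypes the median absolute shift of the peak was 0.777 h, and over all tested genes rhythmic in both it was 1.14 h. Fasn peaked at ZT 18.9 in HepWT and 19.1 in HepKO, Acly at 21.1 and 20.9, and Pnpla2 at 10.2 and 10.8. Mgll peaked later in HepKO by 2.71 ± 1.04 h, Thrsp by 2.07 ± 0.66 h and Mlxipl by 3.25 ± 1.34 h (SE), none of which was tested apart from amplitude. The HepKO rhythm of Mlxipl was called narrowly (adjusted p = 0.0498). It was lost with a replicate block (0.0576) and in 20 of 24 fits that left out 1 library (0.0526 to 0.172), all but those without HepKO or HepWT ZT14 replicate 2 or either HepWT ZT22 library.

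**Figure D4:**
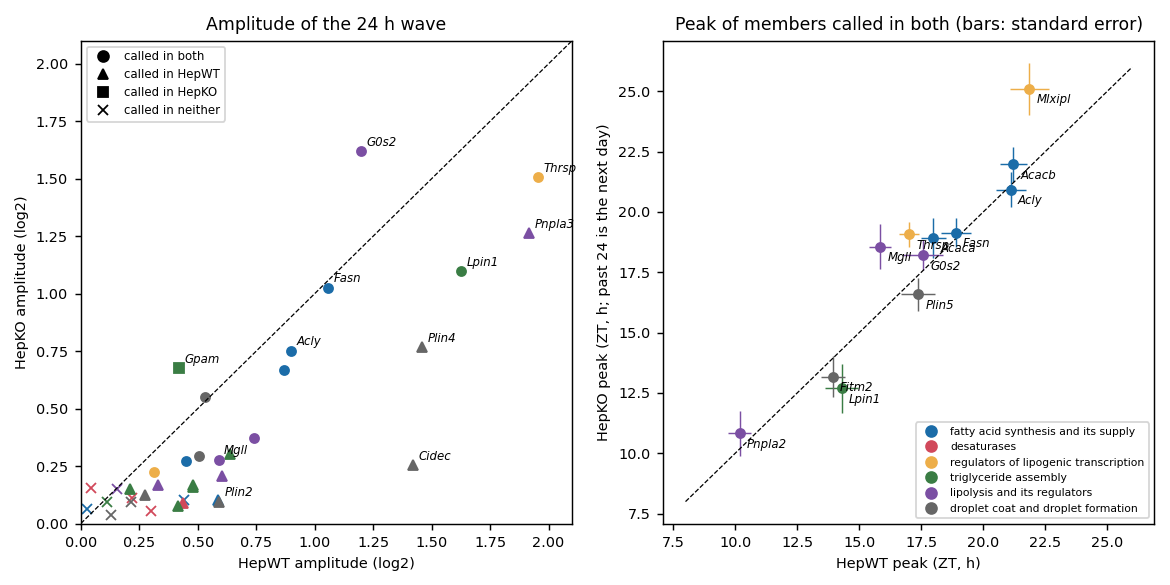
Left, amplitude of the fitted 24 h wave (log2) in HepKO against HepWT for the 36 members, with the dashed line at equality and 31 points below it; marker shapes give the genotypes in which a rhythm was called. Right, peak time in HepKO against HepWT (hours, bars are standard errors) for the 12 members called in both. Their median absolute shift was 0.777 h, and Mgll, Thrsp and Mlxipl lay above the line of equality, later in HepKO.

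The HepWT libraries were not uniform for these genes. Replicate 2 libraries were lower than replicate 1 libraries in 29 of 36 members, with a median of -0.14 on the log2 scale beside 0.00217 for all tested genes, although only Fitm1 passed a test of its own (2.78%, against 1.42% of all tested genes). The genotype difference was more negative against replicate 1 in 28 members, with medians of -0.38 against replicate 1 and -0.27 against replicate 2. Among the called members Fitm1, Scd1 and G0s2 moved most with the choice, while Abhd6, Mgll, Dgat2, Fads1 and Scd2 kept their calls against each set. Pnpla3 did so too, but it passed the 0.5 CPM floor through its HepWT level. Of the 24 calls averaged over the day, 13 (11 lower and 2 higher) held under every alternative fit, and 11 were lost in at least 1.

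**Figure D5:**
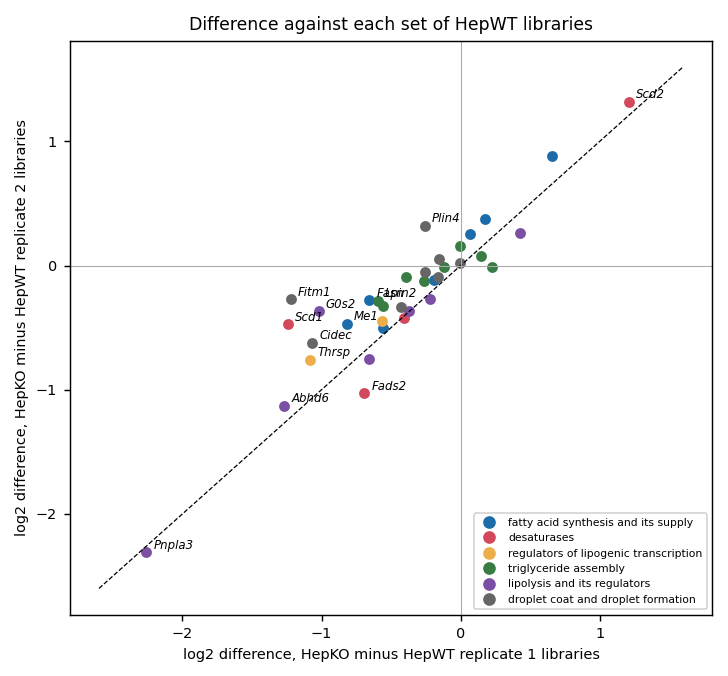
Log2 difference averaged over the day against the HepWT replicate 1 libraries alone (x axis) and against the replicate 2 libraries alone (y axis) for the 36 members, coloured by role, with the dashed line at equality. Most points lie above the line, and Fitm1, Scd1 and G0s2 lie farthest from it, whereas Pnpla3, Abhd6 and Scd2 are far from 0 on both axes.

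Other genes of the same pathways, 44 tested of 45 listed, held 18 that fell and 5 that rose, beside 13.3% and 13.2% of all tested genes. Of 13 genes that supply precursors and NADPH, 3 fell and 1 rose, a share of calls near that of all tested genes; Pklr, the liver pyruvate kinase, was lower (log2 -0.69), as were Mid1ip1, a partner of the acetyl-CoA carboxylases (-0.36), and the acyl-CoA synthetase Acsl1 (-0.31). Of 10 further glycerolipid genes, 3 fell and 3 rose, led by Gpat3, an acyltransferase of the endoplasmic reticulum, from 4.77 to 1.20 CPM (log2 -2.00 ± 0.17 SE, adjusted p = 1.1e-07). Agpat5 was higher (log2 0.33), and Gpd1, which makes glycerol 3-phosphate, was lower (-0.25), as was Agpat1 (-0.20). Of 11 further droplet and lipolysis genes, 4 fell and 1 rose, among them Ces1d, a triglyceride hydrolase, from 779 to 235 CPM (log2 -1.67) and the droplet enzymes Hsd17b13 (-0.62) and Hsd17b11 (-0.57), while Bscl2 (seipin) was higher (log2 0.20). Of 10 transcription factors of lipogenesis, 8 fell and none rose, with Ppara, better known for driving fatty acid oxidation, at log2 -0.79, the coactivator Ppargc1b at -0.71, Srebf1, the gene of SREBP1, at -0.42 and Rxra at -0.17.

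Markers of other liver cells moved between genotypes too. All 8 Kupffer cell markers and 6 of 8 endothelial markers fell, beside 13.3% of all tested genes, with summed levels of 204.5 to 392.8 CPM in HepWT and 156.7 to 339.7 CPM in HepKO for Kupffer cells and 382.7 to 431.1 and 347.9 to 400.8 CPM for endothelium. Of 6 cholangiocyte markers Sox9 and Spp1 rose (summed 26.04 to 58.2 CPM in HepWT and 46.9 to 158.8 CPM in HepKO). Stellate markers held 2 that fell and 1 that rose. The 8 adipocyte markers summed to 1600.0 to 4098 CPM in HepWT and 1831 to 3008 CPM in HepKO, almost all of it Car3, which hepatocytes also express, and 1 (Adrb3) fell. Skeletal muscle markers summed to at most 0.229 CPM in any library. The part of these cells in the differences of the lipid genes was not tested.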

How the data were processed

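RNA-seq of mouse liver was analysed from a table of counts per gene that the authors deposited, with whole numbers for 35304 genes in 24 libraries. Reads were aligned with STAR 2.4.0i to mm10, per the submitters' processing notes; the sources used here name neither the counting tool nor its strand setting, so reads of genes that overlap a gene on the opposite strand (12 of the kept members, among them Lipe, Mgll, Acss2 and Mlxipl) could be mixed. Library totals were 12997689 to 30677807 counts, and the 5 shallowest libraries were all HepKO replicate 2.

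Counts were scaled by TMM, filtered with filterByExpr (minimum count 10, minimum total 15) and tested with the edgeR 4.0.16 quasi-likelihood F test in R 4.3.3, two-sided, with Benjamini-Hochberg adjustment over 17275 genes and a threshold of 0.05. A model of 12 groups gave the differences averaged over the day and at each time (12 residual df); a 24 h wave fitted in each genotype as cosine and sine terms gave rhythm, amplitude and peak time (18 residual df). CPM values are counts scaled in the same way. Alternatives were DESeq2 1.42.0, limma-voom (limma 3.58.1), DESeq2 size factors, no filter, a replicate term, a mean of at least 1 CPM, other shapes of time, single HepWT replicate sets, and fits without 1 library, the 5 of low depth, or the 4 with adipocyte transcripts, the last chosen after seeing the data. The fits were tested on simulated counts. Gene positions and exon lengths came from GENCODE (GRCm38) and promoters from RefSeq (GRCm38.p6).

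The members and lists were chosen with earlier results of these data known. Values in every group are given for the 20 members with the largest absolute difference among those called averaged over the day and for the member with the largest amplitude in each genotype; of each list of other genes, up to 4 called genes with the largest differences are named. The value of 1 gene of these lists is not reported here. Plin2, Lpin1, Agpat2, Pnpla2, Plin4 and the called markers were singled out after their values were seen. Same-numbered libraries of the genotypes did not deviate together, so the replicate numbers were not used as pairs.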

Additional observations from a re-analysis of the deposited data

Results flagged for a closer look

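Abhd6 and Thrsp stood out because their genotype difference itself differed between times of day in the test of genotype with time (edgeR quasi-likelihood F test, adjusted over all tested genes). The adjusted p was 0.00833 for Abhd6, whose fitted difference was below 0 at all 6 times, with log2 -0.50 at ZT6 and -2.07 at ZT14. It was 0.00823 for Thrsp, whose difference ran from 0.59 at ZT6 to -2.46 at ZT10. Neither test passed without the 5 libraries of low depth or without the 4 with adipocyte transcripts, and that of Abhd6 did not pass against HepWT replicate 2 alone.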

How the results depend on the processing

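With 2 libraries a group, single times are the weakest values. Leaving out 1 library left a lone one in its group, assumed to vary like the others. Over these fits the members called ranged from 18 to 22 lower and 3 to 5 higher averaged over the day, 1 to 3 at ZT2, 1 to 5 at ZT6, 4 to 10 at ZT10, 6 to 14 at ZT14, 2 to 10 at ZT18, 0 to 3 at ZT22, 2 to 4 by genotype with time, 23 to 27 rhythmic in HepWT, 9 to 13 in HepKO, 0 to 2 by rhythm difference and 0 to 2 between HepWT replicates. The lowest counts came without HepKO ZT6 replicate 2 (1), HepKO ZT10 replicate 1 or 2 (4 each), HepKO ZT14 replicate 1 (6), HepKO ZT18 replicate 2 or HepWT ZT18 replicate 1 (2 each) and HepKO ZT22 replicate 1 (0).

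Without the 5 libraries of low depth, 13 members were lower averaged over the day, 1 differed at ZT6, 3 at ZT10, 7 at ZT14, 2 at ZT18 and 0 at ZT22, 0 by genotype with time, 0 were rhythmic in HepKO and 0 differed between HepWT replicates. Without the 4 with adipocyte transcripts, 3 differed at ZT6, 3 at ZT10, 0 at ZT22 and 0 by genotype with time, and 6 were rhythmic in HepKO. Without the filter, 11, 20, 21, 23, 17 and 16 differed at ZT2 to ZT22, 23 by genotype with time, 17 by rhythm difference and 4 between HepWT replicates. These counts at single times, by genotype with time and by rhythm difference were above those of the fits with the filter. The share of all genes called is not set beside these counts or the others of this section, so none is read as a result about the members. DESeq2 called 2 at ZT2, 9 by genotype with time, 2 by rhythm difference and 2 between HepWT replicates. Against HepWT replicate 2 alone, 4 differed at ZT2, 3 at ZT6, 1 at ZT22 and 4 by genotype with time, and 15 were rhythmic in HepWT; against replicate 1 alone, 8 at ZT22, 5 by genotype with time, 15 rhythmic and 1 by rhythm difference. Adding a 12 h wave gave 1 rhythm difference. The cause was not tested.

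Replicate numbers did not pair the libraries (r from -0.0893 to 0.0526). With a replicate block, 19 members were lower, 4 higher, and 1 differed at ZT22.

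Uncalled averages that changed sign were Agpat2 (-0.00409 against HepWT replicate 1), Lpin3 (-0.00832 against replicate 2), Plin4 (0.00811 with limma-voom, 0.32 against replicate 2, -0.0955 to 0.102 with 1 library left out), Plin5 (0.0494 against replicate 2) and Cideb (-0.00225 without the filter, -0.00608 against replicate 1, -0.0127 to 0.0271 with 1 library left out).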
